A study of Cavia porcellus with 12 samples.

Results

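The genes described here are those of the NRF2 antioxidant pathway and the superoxide dismutases, chosen as a fixed list of 10 human symbols (*NFE2L2*, *KEAP1*, *HMOX1*, *NQO1*, *GCLC*, *GCLM*, *TXNRD1*, *SOD1*, *SOD2* and *SOD3*). Of these, 9 were among the 11896 symbols of the deposited rlog table (regularised log2 values), and each stood on a count row of its own. *GCLM*, which encodes the modifier subunit of glutamate-cysteine ligase, has no row in that table and was not analysed here. RNA was sequenced from the liver of 12 female Dunkin Hartley guinea pigs, which had arrived at 10 weeks of age. The 6 controls were healthy animals on chow, and the 6 animals with NASH had received a high-fat diet with added sucrose and cholesterol, both for 25 weeks. The animals with NASH had been picked among the high-fat-fed ones for bridging fibrosis, so diet and disease cannot be told apart. Each library came from a single animal, and the livers had not been perfused.

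The transcription factor NRF2, encoded by *NFE2L2*, is normally bound by KEAP1, an adaptor that hands it to a cullin ubiquitin ligase for degradation. Oxidants and electrophiles modify KEAP1, NRF2 then accumulates and, with small MAF proteins, switches on genes of haem breakdown, quinone reduction, glutathione synthesis and thioredoxin recycling. NRF2 is thus controlled largely at the level of its protein, which RNA sequencing does not measure. Superoxide dismutases turn superoxide into hydrogen peroxide in different places: SOD1 in the cytosol with copper and zinc, SOD2 in mitochondria with manganese, and SOD3 outside the cell with copper and zinc. Guinea pigs, like humans, cannot make vitamin C.

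Total counts per library ranged from 16980274 to 28636467 among controls and from 23704607 to 33091460 among animals with NASH. Levels are given in CPM, the count of a gene relative to the total of its library after scaling with edgeR's TMM factors, which ranged from 0.804 to 0.875 for controls and from 1.12 to 1.24 for NASH. Hepatocyte markers were present in every library, with a summed level between 106000 and 135000 CPM in controls and between 41300 and 68800 CPM in NASH over 8 of 10 listed genes. None of the marker genes of 9 cell types found in the table was at 0 in all animals of a group. Genes were compared with edgeR's quasi-likelihood test, and a gene was called when its Benjamini-Hochberg adjusted p-value over all 11896 symbols was under 0.05. The sample labels name no batch.

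By edgeR's test, 8 of the 9 genes differed between NASH and controls, 4 of them higher (*HMOX1*, *TXNRD1*, *SOD2*, *SOD3*) and 4 lower (*KEAP1*, *NQO1*, *GCLC*, *SOD1*). Of all genes tested, 53.9% were called, 27.9% as higher and 26.0% as lower. The groups did not overlap in CPM for 6 of the 9 genes, 3 higher and 3 lower in NASH, against 33.7% of all genes. Over the 9 genes the log2 fold change had a median of −0.07, beside 0.00 for all genes, and its absolute value a median of 0.78, beside 0.36. Scaling by library size alone, without TMM factors, shifted all genes upwards, to a median of 0.48 on the log2 scale. Then 5 of the 9 genes were called higher and 1 lower, beside 7603 higher and 911 lower genes in all (3318 and 3093 with TMM factors). Relative to that median, each of the 9 genes kept its log2 fold change within 0.01.

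**Figure D1:**
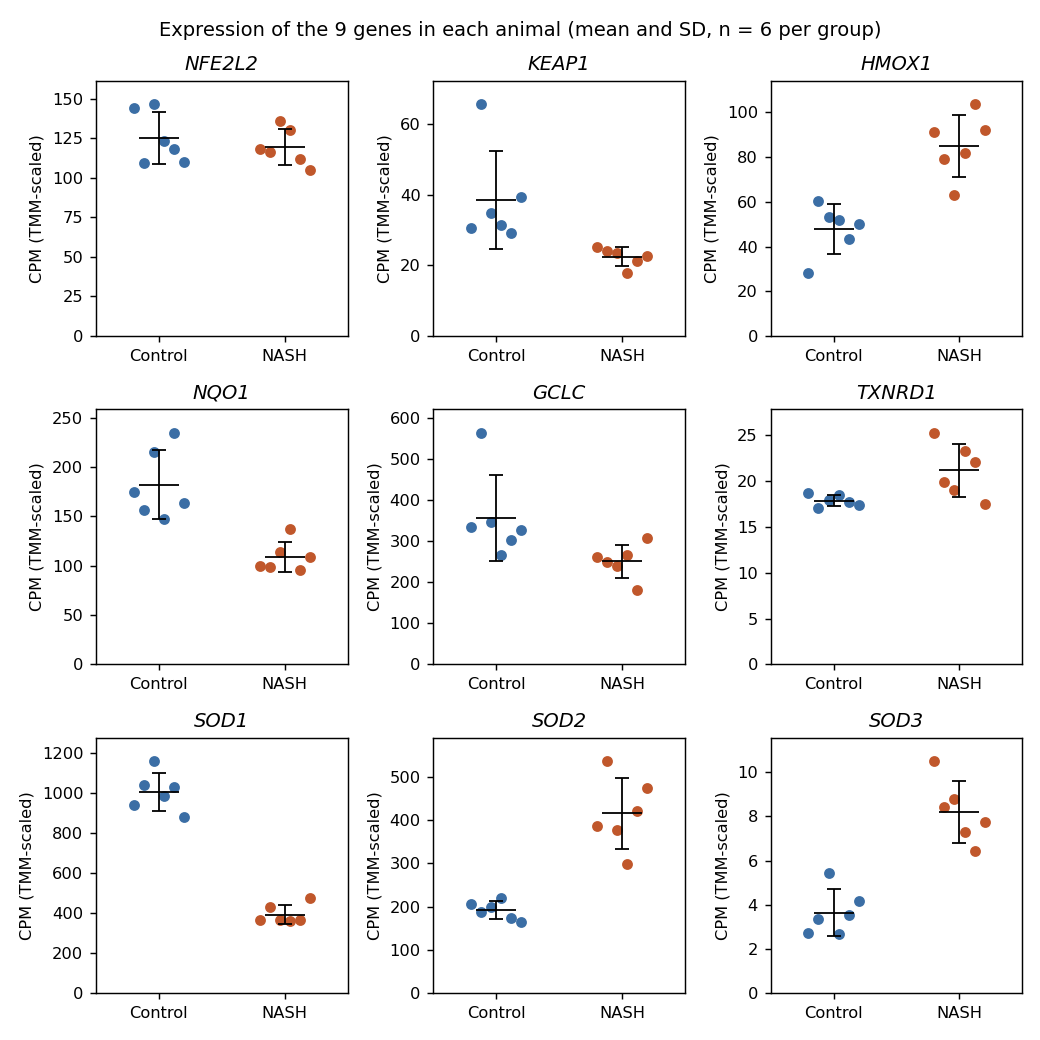
Expression of the 9 genes in CPM (linear axis from 0) in each of the 6 controls and 6 animals with NASH. Points are animals, and bars give mean and SD. *SOD1*, *NQO1* and *KEAP1* lie lower and *HMOX1*, *SOD2* and *SOD3* higher in NASH without overlap, whereas *NFE2L2*, *GCLC* and *TXNRD1* overlap.

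*NFE2L2* itself did not pass the test. Its level was between 109 and 147 CPM in controls (median 121) and between 105 and 136 CPM in NASH (median 117). The ranges overlapped almost completely, and 1 animal with NASH lay below all controls. The log2 fold change was −0.07 (SE 0.10, edgeR adjusted p = 0.574), and its 95% interval ran from −0.27 to 0.14, or from 0.828 to 1.1 times the control level. With library size alone the sign turned, to a log2 fold change of 0.41 (edgeR adjusted p = 0.00241), a value 0.07 under the all-gene median of that scaling.

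*KEAP1*, which encodes the inhibitor of NRF2, was lower in NASH. Controls lay between 29.1 and 65.7 CPM (median 33.2) and animals with NASH between 17.9 and 25.4 CPM (median 23.1). All 6 animals with NASH were below all 6 controls. The mean fell from 38.6 ± 13.8 to 22.5 ± 2.65 CPM (SD, n = 6 each), that is a log2 fold change of −0.78 (SE 0.19, edgeR adjusted p = 0.00341). The control mean leaned on animal 10 at 65.7 CPM, since the other 5 controls reached at most 39.4 CPM. Without this animal the log2 fold change was −0.56 (edgeR adjusted p = 0.000944). With library size alone *KEAP1* was not called (log2 fold change −0.30, edgeR adjusted p = 0.156). In whole tissue, fewer cells of a type and less RNA per cell cannot be told apart.

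Of the 4 classical NRF2 targets in the table, 2 were higher and 2 lower. *HMOX1*, the inducible haem oxygenase that opens the haem ring and frees its iron, was between 28 and 60.6 CPM in controls (median 51.1). In NASH it was between 63 and 104 CPM (median 86.6). The groups lay next to each other without overlap, with control 10 and NASH animal 11 closest. The mean rose from 47.9 ± 11.2 to 85.2 ± 13.9 CPM (SD, n = 6 each), 1.78-fold with a 95% interval from 1.38 to 2.28 (log2 fold change 0.83, SE 0.17, edgeR adjusted p = 0.00107). Leaving out any 1 animal kept the log2 fold change between 0.72 and 0.91, and with library size alone it was 1.3.

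*HMOX1* is known to be abundant in macrophages that take up red cells. Of the macrophage markers, 10 of 13 were in the table, 2 higher and 2 lower in NASH (6 higher and 1 lower with library size alone). Their summed level was between 474 and 866 CPM in controls and between 753 and 1020 CPM in NASH. *CD163*, the haemoglobin scavenger receptor of macrophages, has no row in the table. Erythroid markers were found for 6 of 8 genes, all 6 higher in NASH, with a summed level between 58.6 and 176 CPM in controls and between 437 and 4600 CPM in NASH. The part of either cell type in the *HMOX1* result was not tested.

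*NQO1*, a quinone reductase often read as the reporter of NRF2 activity, went the other way. It was between 147 and 235 CPM in controls (median 169) and between 95.7 and 137 CPM in NASH (median 104). Every animal with NASH lay below every control, with NASH animal 20 closest to them. The mean fell from 182 ± 35.1 to 109 ± 15.6 CPM (SD, n = 6 each), to 0.598 times the control level with a 95% interval from 0.492 to 0.727 (log2 fold change −0.74, SE 0.13, edgeR adjusted p = 0.000373). With library size alone the log2 fold change was −0.27 and not called (edgeR adjusted p = 0.0934). Hepatocyte markers were lower for 7 of the 8 genes in the table, with a median log2 fold change of −0.87. Their part in this fall and in that of *GCLC* was not tested.

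*GCLC* encodes the catalytic subunit of glutamate-cysteine ligase, which makes the first and rate-limiting step of glutathione synthesis. Controls lay between 268 and 565 CPM (median 332) and animals with NASH between 182 and 308 CPM (median 255). Of the animals with NASH, 5 were below all controls and NASH animal 65 was within their range. The mean fell from 357 ± 105 to 251 ± 41.3 CPM (SD, n = 6 each), that is a log2 fold change of −0.51 (SE 0.17, edgeR adjusted p = 0.0243). Control 10 was again far above the other controls, and without it the log2 fold change shrank to −0.33 (edgeR adjusted p = 0.0377). Without NASH animal 41 the call was lost (log2 fold change −0.43, edgeR adjusted p = 0.0509), and with library size alone the log2 fold change was −0.03 (edgeR adjusted p = 0.863).

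*TXNRD1*, the cytosolic selenoenzyme that keeps thioredoxin reduced, changed least of the genes called. Controls were tightly grouped between 17.1 and 18.7 CPM (median 17.8), a coefficient of variation of 3.53%. Animals with NASH were spread between 17.4 and 25.3 CPM (median 21), a coefficient of variation of 13.7%, and 5 of the 6 lay above all controls. The mean rose from 17.9 ± 0.63 to 21.2 ± 2.90 CPM (SD, n = 6 each), 1.18-fold with a 95% interval from 1.04 to 1.35 (log2 fold change 0.24, SE 0.09, edgeR adjusted p = 0.0324). The call was lost when any 1 of 6 animals was left out (controls 10, 45 and 56 and NASH animals 2, 20 and 41), with log2 fold changes from 0.18 to 0.24 and adjusted p-values from edgeR up to 0.0824. With library size alone the log2 fold change was 0.73 (edgeR adjusted p = 5.41e-05).

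Of the 3 superoxide dismutases 1 fell and 2 rose. *SOD1*, the cytosolic copper-zinc enzyme, was between 880 and 1157 CPM in controls (median 1005) and between 358 and 472.5 CPM in NASH (median 364). The highest animal with NASH, animal 65, still lay far below the lowest control, animal 56. The mean fell from 1004 ± 94.8 to 391 ± 47.4 CPM (SD, n = 6 each), to 0.39 times the control level with a 95% interval from 0.338 to 0.45 (log2 fold change −1.36, SE 0.10, edgeR adjusted p = 2.78e-07). This absolute change was above that of 88.3% of all genes tested. With any 1 animal left out the log2 fold change stayed between −1.43 and −1.31, and with library size alone it was −0.89 (edgeR adjusted p = 2.12e-06). Hepatocyte markers fell alongside, 7 of the 8 in the table (4 lower and 1 higher with library size alone), with a median log2 fold change of −0.87, and their part in the result was not tested.

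*SOD2*, the mitochondrial manganese enzyme and a known target of NF-kB, rose. It was between 163 and 221 CPM in controls (median 193) and between 299 and 537 CPM in NASH (median 404). The groups were separated by a wide gap, with NASH animal 20 lowest and NASH animal 9 highest in their group. The mean rose from 191 ± 21.2 to 416 ± 82.8 CPM (SD, n = 6 each), 2.18-fold with a 95% interval from 1.79 to 2.65 (log2 fold change 1.12, SE 0.13, edgeR adjusted p = 1.36e-05), or 1.59 on the log2 scale with library size alone. Of 7 listed neutrophil markers 3 were in the table, 2 of them higher, with a summed level between 0.974 and 3.76 CPM in controls and between 3.54 and 10.5 CPM in NASH, and their part in the *SOD2* result was not tested.

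*SOD3*, the extracellular enzyme, is bound to the matrix and made largely by vessel wall and mesenchymal cells. Its counts were the lowest of the 9 genes, between 38 and 309 in a library. It was between 2.66 and 5.45 CPM in controls (median 3.44) and between 6.43 and 10.5 CPM in NASH (median 8.09). All animals with NASH were above all controls, NASH animal 2 furthest. The mean rose from 3.65 ± 1.05 to 8.20 ± 1.41 CPM (SD, n = 6 each), 2.24-fold with a 95% interval from 1.71 to 2.94 (log2 fold change 1.17, SE 0.18, edgeR adjusted p = 0.000147), or 1.64 on the log2 scale with library size alone. Of the 11 stellate cell and fibroblast markers, all in the table, 9 were higher and 1 lower in NASH, and their summed level was between 764 and 917 CPM in controls and between 1650 and 3330 CPM in NASH. Of the 8 endothelial markers, 3 were higher and 1 lower. The part of these cells in the *SOD3* result was not tested.

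**Figure D2:**
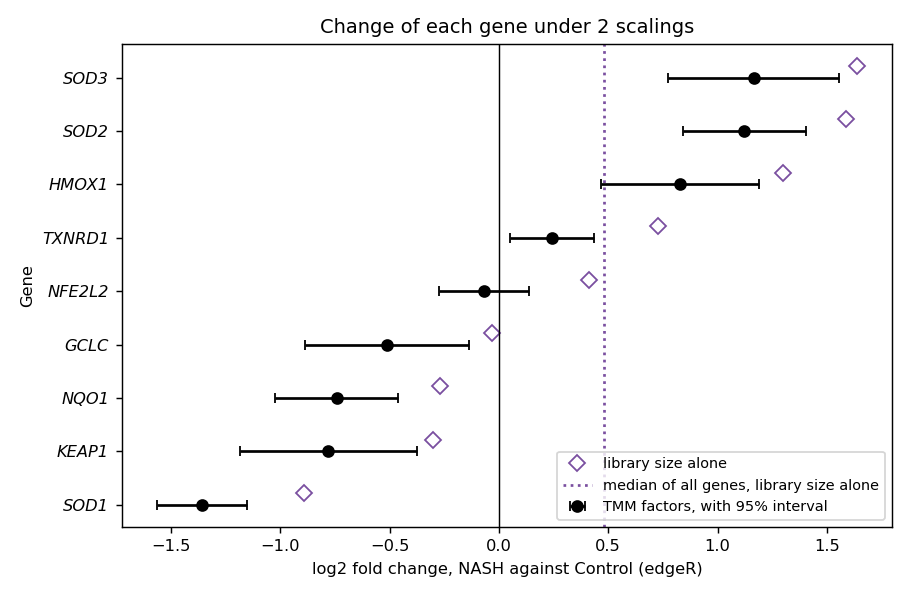
Log2 fold change of the 9 genes between NASH and controls. Black points with 95% intervals use TMM factors, open diamonds library size alone, and the dotted line is the median of all genes under library size alone (0.48). *NFE2L2* changes sign between the scalings (−0.07 and 0.41), *GCLC*, *NQO1* and *KEAP1* come closer to 0, and *SOD1*, *HMOX1*, *TXNRD1*, *SOD2* and *SOD3* keep direction and call.

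To compare genes without any library scaling, the log2 ratio of the counts of a pair of genes was formed within each animal for 4 pairs. Counts are not corrected for gene length, so the change of a ratio between groups is read here and not its level. The ratio of *SOD2* to *SOD1* was between −2.57 and −2.16 on the log2 scale in controls and between −0.26 and 0.33 in NASH. Its mean went from −2.39 ± 0.18 to 0.07 ± 0.20 (SD, n = 6 each), a 5.53-fold higher ratio in NASH. The ratio of *SOD3* to *SOD1* rose 5.86-fold, from −8.14 ± 0.35 to −5.58 ± 0.31 on the log2 scale (SD, n = 6 each). In both pairs each gene alone already separated the groups, in opposite directions, so the separation of the ratios follows from the single genes and was given no test. Leaving out any 1 animal kept their differences between 2.42 and 2.53 and between 2.46 and 2.64. With the deposited rlog values, which are regularised, the differences were smaller, at 1.61 and 1.40.

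The ratio of *HMOX1* to *NQO1* likewise sets a gene that rose against one that fell, and is given as a description. It was −1.94 ± 0.51 in controls and −0.36 ± 0.37 in NASH on the log2 scale (SD, n = 6 each). The ratio was 3-fold higher in NASH. The ratio of *NFE2L2* to *KEAP1* was 1.75 ± 0.56 in controls and 2.42 ± 0.25 in NASH (SD, n = 6 each), 1.59-fold higher. *KEAP1* alone already separated the groups and *NFE2L2* was not called, so this ratio largely restates the fall of *KEAP1* and was given no test either. Here the groups touched, since control 5 at 2.23 lay above NASH animals 2 and 65 at 2.22 and 2.21. Control 10 was lowest at 0.73, and over the animals left out in turn the difference stayed between 0.46 and 0.76.

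**Figure D3:**
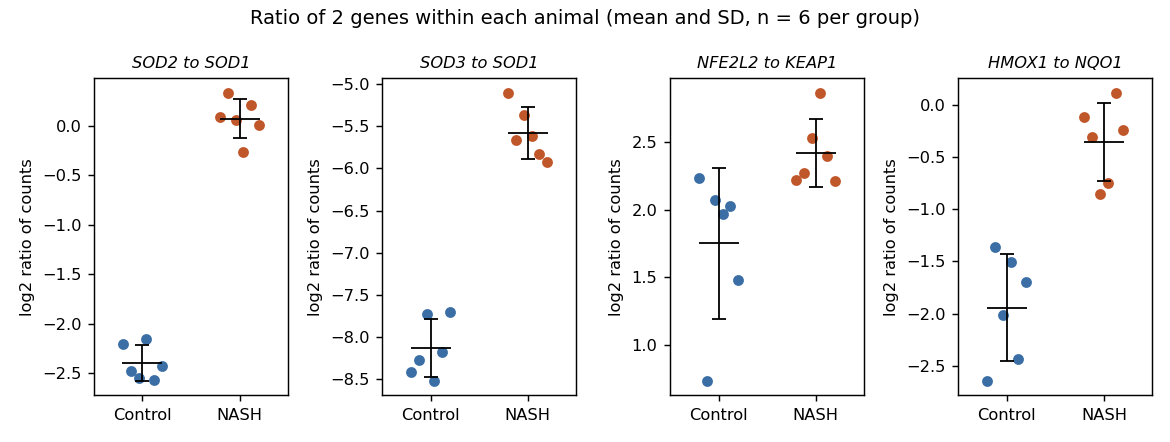
Log2 ratio of the counts of 2 genes within each animal, for 4 pairs in the 6 controls and 6 animals with NASH, with mean and SD. Each panel has its own axis, which does not start at 0. The ratios of *SOD2* to *SOD1*, *SOD3* to *SOD1* and *HMOX1* to *NQO1* do not overlap between the groups, and that of *NFE2L2* to *KEAP1* overlaps at its edge.

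Genes with the most similar profile were sought over the 12 animals, using the root mean square difference between log2 CPM values centred for each gene. For *SOD1* these were *ECI2*, a peroxisomal enoyl-CoA isomerase (difference 0.07), and *CAT*, catalase (0.08). *SOD2* was closest to *RNF19B* (0.16) and *PIM1*, a serine/threonine kinase (0.20), and *SOD3* to *APBB1* (0.14) and *PHLDB1* (0.21). *HMOX1* was closest to *C15orf39* (0.13) and *MICALL2* (0.15), *NQO1* to *SKP2.1* (0.15) and *HLF* (0.15), *NFE2L2* to *SDR42E1* (0.09) and *SLC4A1AP* (0.09), and *TXNRD1* to *RARS1* (0.08) and *TMOD3* (0.09). *EIF4EBP2*, a repressor of translation initiation, was among the closest genes of both *KEAP1* (0.13) and *GCLC* (0.20). Among all 9 genes the differences to the nearest genes lay between 0.07 and 0.21. They are not scaled to the spread of a gene, so they come out small for genes that vary little, such as *NFE2L2* and *TXNRD1*. They describe likeness in these animals and carry no test.

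The partners of NRF2 were described from a list of 15 genes, of which 12 were in the table. Of these, 2 were higher, 1 lower and 9 not called, where 27.9% of all genes were called higher and 26.0% lower. Their median log2 fold change was −0.09. With library size alone it was 0.39, beside 0.48 for all genes. Then 8 were higher and 0 lower, beside 7603 and 911 of all 11896 genes. *SQSTM1*, which encodes the autophagy receptor p62 that binds KEAP1 and is itself an NRF2 target, rose from 106 ± 33.7 to 271 ± 32.5 CPM (SD, n = 6 each; log2 fold change 1.35, SE 0.19, edgeR adjusted p = 6.68e-05). *BACH1*, the haem-sensing repressor that competes with NRF2 at *HMOX1*, rose from 12.7 ± 2.75 to 18.9 ± 3.10 CPM (SD, n = 6 each; log2 fold change 0.57, edgeR adjusted p = 0.00697). Both had every animal with NASH above every control. *BTRC*, an adaptor of another ligase that degrades NRF2, had a log2 fold change of −0.22 (edgeR adjusted p = 0.0377). With library size alone it was 0.25 (edgeR adjusted p = 0.0201), under the all-gene median of 0.48. *MAFG*, a small MAF partner whose count row also carries *SIRT7*, was not called (log2 fold change −0.27, or 0.20 with library size alone, adjusted p = 0.0808 and 0.133 from edgeR). *MAFK*, another small MAF gene, was not called either (log2 fold change 0.29, edgeR adjusted p = 0.151), but was with library size alone (0.77, edgeR adjusted p = 0.00105). The ligase subunit *CUL3* has no row in the table.

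Of 34 further NRF2 targets, 28 were in the table (27 count rows), 10 higher, 14 lower and 4 not called. Over all genes 27.9% were called higher and 26.0% lower. The median log2 fold change of the 28 targets was −0.27. With library size alone it was 0.20 (13 higher and 4 lower), beside 0.48 for all genes. The highest log2 fold changes were those of an export pump and of an enzyme that supplies NADPH. *ABCC4*, the pump, rose from 3.47 ± 1.79 to 39.2 ± 11.6 CPM (SD, n = 6 each; log2 fold change 3.51, SE 0.36, edgeR adjusted p = 5.2e-06). *ME1*, the cytosolic malic enzyme, rose from 0.498 ± 0.333 to 2.46 ± 0.495 CPM (SD, n = 6 each), from at most 16 counts in a control. Its log2 fold change was 2.34. It reached the 200 counts needed for a symbol only through NASH (54 counts in controls, 481 in NASH), so no test is given. *PIR*, pirin, fell by 1.73 on the log2 scale (edgeR adjusted p = 0.00017), and *GSTM1*, a glutathione transferase, fell by 1.69, from 5266 ± 1321 to 1628 ± 459 CPM (SD, n = 6 each; edgeR adjusted p = 3e-05). *SLC7A11*, the cystine importer, has no row in the table.

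Enzymes that remove the hydrogen peroxide made by superoxide dismutases, and the thiol enzymes beside them, numbered 28, of which 24 were in the table. Of these, 7 were higher, 11 lower and 6 not called, where 27.9% of all genes were called higher and 26.0% lower. Their median log2 fold change was −0.18. With library size alone it was 0.30 (12 higher and 6 lower), beside 0.48 for all genes. *CAT*, catalase of the peroxisomes, fell from 10940 ± 830 to 4358 ± 697 CPM (SD, n = 6 each; log2 fold change −1.33, SE 0.11, edgeR adjusted p = 1.06e-06). *PRDX5*, a peroxiredoxin, fell by 1.15 on the log2 scale (edgeR adjusted p = 5.87e-07). *GPX1* and *PRDX1*, both listed, have no row in the table. *TXN*, thioredoxin, fell by 0.40 (edgeR adjusted p = 0.00104), but had a log2 fold change of 0.08 and no call with library size alone (edgeR adjusted p = 0.415), while *GSR*, glutathione reductase, was variable and not called (log2 fold change −0.24, SE 0.34, edgeR adjusted p = 0.572). *SRXN1*, sulfiredoxin, an NRF2 target that repairs peroxiredoxins, rose from 0.992 ± 0.505 to 2.54 ± 0.336 CPM (SD, n = 6 each). Its log2 fold change was 1.32. *GPX2* rose by 1.5 on the log2 scale, from at most 32 counts in a control, and its groups overlapped. Both genes reached the 200 counts needed for a symbol only through NASH (123 and 131 counts in controls), so no test is given. *PRDX2*, a peroxiredoxin abundant in red cells, rose and was between 4 and 6.46 CPM in controls and between 15.7 and 61.6 CPM in NASH (log2 fold change 2.59, edgeR adjusted p = 2.48e-05). Its highest values, 61.6 CPM in NASH animal 41 and 42.0 CPM in NASH animal 65, stood in the animals with the highest erythroid sums, 4600 and 3330 CPM, and the part of red cells in this result was not tested.

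Beside *GCLC*, 11 of 15 genes of glutathione synthesis and turnover were in the table, 5 higher, 2 lower and 4 not called. Among all genes 27.9% were called higher and 26.0% lower. The median log2 fold change of the 11 genes was 0.10 (8 higher and 2 lower with library size alone). *GSS*, glutathione synthetase, which makes the step after *GCLC*, rose from 29.2 ± 1.99 to 41.7 ± 2.54 CPM (SD, n = 6 each; log2 fold change 0.51, SE 0.07, edgeR adjusted p = 3.14e-05). *CHAC1*, which breaks glutathione down inside the cell, had no count in 5 controls and 4 counts in the other. In each animal with NASH it had between 45 and 119 counts. *GGT7* rose by 1.32 on the log2 scale, from at most 27 counts in a control, and its groups overlapped. Symbols needed at least 200 counts in total, which both genes reached only through NASH (428 counts for *CHAC1* and 300 for *GGT7*). They are therefore given without a test, though both count among the 5 higher. *OPLAH*, the 5-oxoprolinase of the gamma-glutamyl cycle, fell by 1.21 on the log2 scale (edgeR adjusted p = 3.68e-06). *GGCT*, on a row with another symbol, fell by 0.85 (edgeR adjusted p = 4.11e-05).

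Around *HMOX1*, 9 of 11 genes of haem handling were in the table, 2 higher, 3 lower and 4 not called. Among all genes 27.9% were called higher and 26.0% lower. The median log2 fold change of the 9 genes was −0.04. With library size alone it was 0.43 (5 higher and 1 lower), beside 0.48 for all genes. The constitutive haem oxygenase *HMOX2* rose from 16.6 ± 1.68 to 24.9 ± 3.99 CPM (SD, n = 6 each; log2 fold change 0.58, SE 0.11, edgeR adjusted p = 0.000791). The biliverdin reductases, which act on the product of haem oxygenase, were lower, *BLVRA* by a log2 fold change of −0.82 (edgeR adjusted p = 4.28e-06) and *BLVRB* by −0.74 (edgeR adjusted p = 0.000119, but 0.0579 with library size alone). *SLC48A1*, which exports haem from lysosomes, rose by 0.39 on the log2 scale (edgeR adjusted p = 0.00569).

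All 10 genes listed for copper and manganese supply were in the table, 1 higher, 7 lower and 2 not called. Among all genes 27.9% were called higher and 26.0% lower. The median log2 fold change of the 10 genes was −0.49 (3 higher and 4 lower with library size alone). *CCS*, the chaperone that loads copper into SOD1, fell from 63.3 ± 3.73 to 27.5 ± 2.89 CPM (SD, n = 6 each), with no overlap between groups. Its log2 fold change was −1.21 (SE 0.08, edgeR adjusted p = 1.75e-07), beside −1.36 for *SOD1*. *ATOX1*, which carries copper to the secretory pathway where SOD3 is loaded, had a log2 fold change of −0.51 (edgeR adjusted p = 0.023, but 0.905 with library size alone). *SLC39A14*, an importer of zinc, iron and manganese, fell by 1.32 on the log2 scale (edgeR adjusted p = 6.43e-05). *COMMD1*, on a row with *B3GNT2*, rose by 0.26 (edgeR adjusted p = 0.00562). Hepatocyte markers were lower in NASH for 7 of 8 genes, with a median log2 fold change of −0.87. Their part in the falls of this list was not tested. Nor was it for the peroxide and thiol, glutathione, haem and further NRF2 target lists.

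Of 12 genes of enzymes that make superoxide or peroxide, 8 were in the table, 4 higher, 1 lower and 3 not called. Among all genes 27.9% were called higher and 26.0% lower. The median log2 fold change of the 8 genes was 0.79 (7 higher and 1 lower with library size alone). *CYBB*, the catalytic subunit of the phagocyte NADPH oxidase, rose from 27.8 ± 8.91 to 80.6 ± 12.2 CPM (SD, n = 6 each; log2 fold change 1.53, SE 0.23, edgeR adjusted p = 0.000125). *XDH*, xanthine dehydrogenase, rose from 88.6 ± 15.7 to 220 ± 28.6 CPM (SD, n = 6 each; log2 fold change 1.31, edgeR adjusted p = 2.46e-06). *AOX1*, aldehyde oxidase, fell by 1.08 on the log2 scale (edgeR adjusted p = 1.99e-05). In all 3 the groups did not overlap. Of the markers, 2 of 3 neutrophil, 3 of 3 B cell and 2 of 10 macrophage genes (*CD68* and *MSR1*) were higher. Lower were 2 of 10 macrophage and 7 of 8 hepatocyte genes. With library size alone, 6 macrophage genes were higher and 1 lower, and 1 hepatocyte gene was higher and 4 lower. The part of these cell types in the values of this list was not tested.

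**Figure D4:**
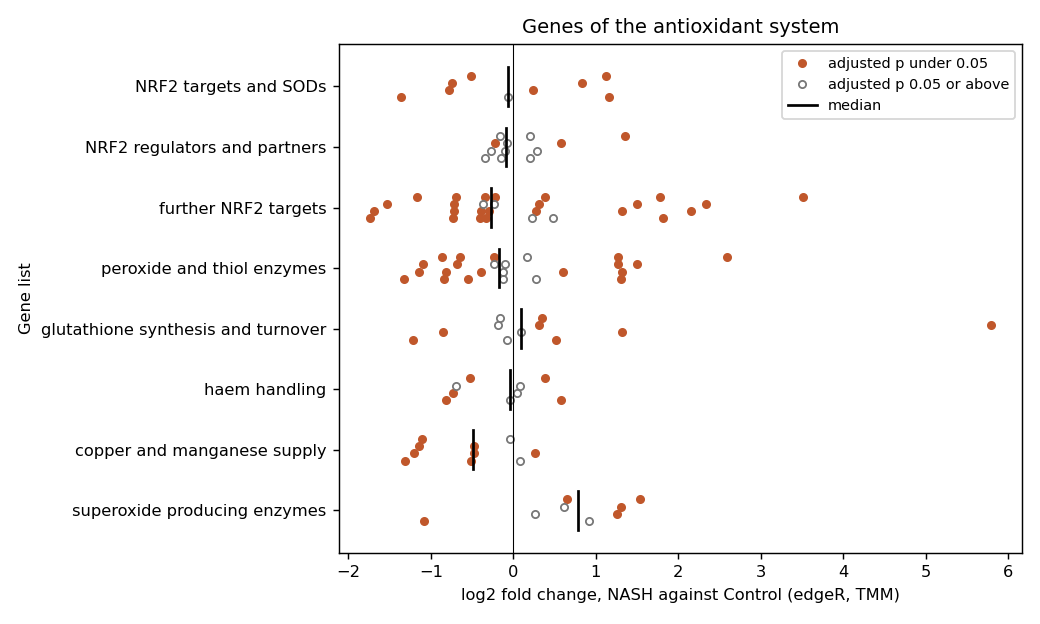
Log2 fold change (edgeR, TMM factors) of the 9 genes and of the genes found from 7 lists of the antioxidant system. Filled points are genes called, open points genes not called, and bars mark the median. Genes lie on both sides of 0 in every list. With library size alone the medians of 4 of the 5 lists that lie below 0 turn above it, where the median of all genes is 0.48. The median is lowest for copper and manganese supply (−0.49, or −0.01 with library size alone) and highest for superoxide producing enzymes (0.79). The point near 5.8 is *CHAC1*, whose fitted value rests on 4 control counts.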

How the data were processed

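The authors trimmed single reads from stranded mRNA libraries with Trimmomatic 0.38.0, mapped them with HISAT2 2.1.0 to Ensembl Cavpor3.0, ignored multimapped reads and quantified loci with StringTie 1.3.6 (versions per the submitters' processing notes). They deposited raw counts for 39061 loci and log2 values (rlog, DESeq2) for the 11896 human orthologue symbols with at least 200 counts in total. The count table gives no symbols, so rlog was repeated with DESeq2 until each symbol's row was found (largest difference 8e-07). Behind the symbols stood 11031 rows, and 1515 symbols shared a row.

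Counts were compared in R 4.3.3 with edgeR 4.0.16 (TMM, glmQLFit robust, glmQLFTest), using the total of the whole table as library size. Standard errors are the absolute log2 fold change over the root of F, and log2 CPM used a prior count of 2. Ratios used counts plus 0.5. The planned exact permutation tests of the 4 ratios are not given, since in each pair 1 or both genes already separated the groups. Within groups, animals differed pairwise by 43.8 or more times the counting variance. The procedure was tested on simulated data. Alternatives were RLE and upper-quartile factors, library size alone, DESeq2 1.42.0, limma 3.58.1 (voom, and on rlog values), other row filters, an adjusted p limit of 0.01, edgeR's glmTreat with a minimum change of 0.5 (log2), a prior count of 5 and each animal left out. Animals within a group are separate animals per the labels. Figures were drawn with matplotlib 3.10.9.

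The members, lists (7 for pathways, 9 for cell types: hepatocytes, macrophages, neutrophils, T cells, B cells, cholangiocytes, stellate cells and fibroblasts, endothelial and erythroid cells) and tests were chosen with earlier results of these data known. Named were all members, a chosen set of direct partners of members, and the 2 highest and 2 lowest called genes of each pathway list. Cell type lists are given by counts and summed levels. In gene lists and markers, a symbol missing from the table was left out. Symbols were kept by their total count over both groups, so a gene near absent in controls is there only when high in NASH. Such genes are among those called higher in lists and markers. No sequences were used here. Of the markers not mentioned beside a gene, 1 of 7 T cell genes was higher and 1 lower, and 5 of 6 cholangiocyte genes were higher.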

Additional observations from a re-analysis of the deposited data

Results flagged for a closer look

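In controls, *KEAP1* of animal 10 stood apart at 65.7 CPM, while the other 5 controls were between 29.1 and 39.4 CPM. The same animal stood apart in *GCLC* at 565 CPM, with the others between 268 and 346 CPM. Both were found by Dixon's test, in which the gap to the nearest animal is set against the range of the group (0.718 and 0.735, both above the 95% critical value for 6 animals). Of 26 groups of values examined these 2 stood apart, where chance gives about 1 in 20.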

How the results depend on the processing

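With library size alone, 1 of the 9 genes was called lower instead of 4, and *NFE2L2* reversed to a log2 fold change of 0.41. The shift of the median of all genes to 0.48 under this scaling accounts for it by construction. When the change itself had to exceed 0.5 (log2, glmTreat), 1 gene was called lower (*SOD1*), and *KEAP1*, *NQO1*, *GCLC* and *TXNRD1* lost their call. At an adjusted p limit of 0.01, *GCLC* and *TXNRD1* lost theirs. With every row of at least 1 count, *GCLC* was not called (edgeR adjusted p = 0.0606). *HMOX1*, *SOD1*, *SOD2* and *SOD3* kept direction and call in all 21 alternatives of their fold change. RLE and upper-quartile factors, DESeq2, limma-voom, limma on rlog values, filterByExpr and each count row once changed no call among the 9 genes. No paired analysis was made, since each animal belongs to 1 group only and the labels name no pairs. *SOD3* had the lowest counts of the 9 genes, between 38 and 309 in a library.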
